A study of Mus musculus with 12 samples.

Results

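The genes described here encode 9 G protein-coupled receptors that vasoactive peptides or serine proteases activate. They are the angiotensin II receptors Agtr1a and Agtr2, the neuropeptide Y receptor Npy1r, the endothelin receptors Ednra and Ednrb, the bradykinin receptors Bdkrb1 and Bdkrb2, and the protease-activated receptors F2r and F2rl1. They were taken by symbol from a table of read counts for 32168 genes, in which all 9 were found. The set was chosen by a measured value, namely that Agtr2 and Npy1r stood higher under the drug MGH-CP1 (CP1) than under DMSO, so every CP1 against DMSO value of a receptor is given as a description without a test. The genotype comparisons share libraries with that contrast. The comparison of 4 with 2 days of CP1 was not itself used in the choice, but it uses the same CP1 libraries and is not independent of it.

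RNA was sequenced from mouse embryonic fibroblasts, connective-tissue cells cultured here from E13.5 embryos and used at passages 4 to 10. Wild-type cells (WT) were set beside cells lacking both Lats1 and Lats2 (DKO), kinases of the Hippo pathway that restrain the co-activators YAP and TAZ, the partners of TEAD DNA-binding proteins. All cells grew in DMEM with FBS, and all received either DMSO alone or, at 1 µM in DMSO, CP1, which blocks the palmitoylation of TEAD proteins. Exposure lasted 2 or 4 days, and each day had 1 library from DMSO and 2 from CP1 per genotype, 12 libraries in 8 groups. The labels give neither the number of embryos, cultures or lines behind a genotype nor the way the Lats genes were deleted, so genotype and origin of the cells cannot be told apart. They also do not say whether repeats came from separate cultures, so each p-value reflects no more than how far these samples lie apart, which may be a technical spread.

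Angiotensin II constricts vessels and drives growth of fibroblasts and smooth muscle mainly through the type 1 receptor, while the type 2 receptor, abundant in fetal mesenchyme, is known to oppose many of those actions. Endothelin acts through a type A receptor typical of smooth muscle and fibroblasts and a type B receptor typical of endothelium and neural crest. Bradykinin acts through a constitutive type 2 receptor and an injury-induced type 1 receptor, neuropeptide Y through the inhibitory G protein-coupled Y1 receptor, and thrombin and trypsin-like proteases by cutting the receptors of F2r and F2rl1, which exposes a tethered ligand.

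On the mm10 build, Agtr1a (ENSMUSG00000049115.15) lies on the plus strand at chr13:30336441-30382867 and Agtr2 (ENSMUSG00000068122.10) on the plus strand at chrX:21484544-21489164. Npy1r (ENSMUSG00000036437.6) lies on the plus strand at chr8:66697192-66706792 and Ednra (ENSMUSG00000031616.7) on the minus strand at chr8:77663031-77724464. Ednrb (ENSMUSG00000022122.15) lies on the minus strand at chr14:103814625-103844402. The bradykinin receptor genes are neighbours on the plus strand, Bdkrb2 (ENSMUSG00000021070.6) at chr12:105563226-105595237 and Bdkrb1 (ENSMUSG00000041347.5) at chr12:105603085-105605428, 7847 bases apart. The protease receptor genes are neighbours on the minus strand, F2rl1 (ENSMUSG00000021678.9) at chr13:95511732-95525227 and F2r (ENSMUSG00000048376.6) at chr13:95601803-95618487, 76575 bases apart. Each pair has 0 protein-coding genes between its members. The near-identical angiotensin receptor gene Agtr1b held 1 read over all libraries, though reads that match both genes may not have been counted for either. Ednra shares 91 exon bases with a gene on the other strand, 4933431K23Rik, which held 20 reads over all libraries.

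Upstream windows of 250 bases were found for 6 of the 9 genes in RefSeq's promoter table (GRCm38.p6), namely Agtr2, Npy1r, Ednra, Ednrb, Bdkrb2 and F2r. They were searched on both strands for GGAATG, the core of the TEAD motif (CATTCC on the other strand), and for TGANTCA, the AP-1 motif, which reads the same on both strands. GGAATG was in 12.6% of all 32851 windows and in 0 of these 6. TGANTCA was in 6.75% of all windows and in 2 of these 6, Npy1r at position −231 and F2r at position −204 from the RefSeq start. The stretches printed are those of the receptor gene with the largest day effect, of the receptor gene with the highest level, and the motif of Npy1r, with capitals for the letters that match TGANTCA. The first is the plus strand at chrX:21484374-21484543 and the next the minus strand at chr13:95618488-95618716. The last is the plus strand at chr8:66697179-66697208, upstream of the RefSeq start and across the start that the count table uses. A match is a description of letters and does not show binding.
Agtr2: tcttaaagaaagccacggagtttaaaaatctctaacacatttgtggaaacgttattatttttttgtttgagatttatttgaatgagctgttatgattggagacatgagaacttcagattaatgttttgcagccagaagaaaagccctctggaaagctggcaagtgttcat
F2r: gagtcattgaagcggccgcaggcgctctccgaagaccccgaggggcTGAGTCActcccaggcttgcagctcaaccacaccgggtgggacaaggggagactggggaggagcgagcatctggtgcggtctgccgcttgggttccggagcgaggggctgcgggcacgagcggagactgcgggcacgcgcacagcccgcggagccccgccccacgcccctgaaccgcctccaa
Npy1r: atgcgccttgctTGAGTCAaggactagtgg

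Library totals ran from 16970834 to 25299262 counts. Against the WT DMSO mean, Lats1 stood at 82.5% to 102.5% in WT libraries, 14.3% and 22.1% in DKO DMSO and 31.2% to 35.6% in DKO CP1, so the DKO treatments did not overlap. Lats2 stood at 76.9% to 104.4% in WT and 26.3% to 31.1% in DKO libraries, where the treatments overlapped. The repeats of WT CP1 at 2 days stood further apart than other repeats, at a mean chi-square per gene of 56.0 against 2.33 to 6.32, and the DKO DMSO libraries of 2 and 4 days had 48.1 on that measure against 1.98 for those of WT DMSO. All 9 fibroblast markers were detected in WT cells (summed level 21570 to 22006 in DMSO in CPM, counts scaled to a common total after TMM normalisation), and DKO cells in DMSO held 5154 to 5605 CPM with Thy1 at 0. In TPM units a predicted miRNA gene, Gm23935, took 20.4% to 21.9% of 3 of the 4 WT CP1 libraries and at most 4.49% of the others, so levels are given from counts. In bulk libraries fewer cells of a type and less RNA per cell cannot be told apart.

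Agtr1a, Agtr2, Npy1r, Ednra, Ednrb, F2r and F2rl1 had enough reads to be tested, 7 of the 9 receptors, and both bradykinin receptors did not. In DMSO, 6 of these 7 differed between DKO and WT cells, 2 higher and 4 lower, where 67.5% of the 16595 genes tested differed, 32.7% higher and 34.8% lower (quasi-likelihood test of edgeR, p adjusted by Benjamini-Hochberg over all genes tested, threshold 0.05, as for every edgeR p here). Under CP1 all 7 differed, 3 higher and 4 lower, against 59.5% of all genes, 28.9% higher and 30.6% lower. Among them F2rl1 passed the read filter only through DKO libraries and Ednrb only through WT libraries. For these genes the filter favoured the direction found in both genotype counts. Between 2 and 4 days of CP1, 3 changed in WT cells, 1 higher and 2 lower, against 15.3% of all genes, 7.0% higher and 8.26% lower. In DKO cells 2 changed, both higher, against 24.2% of all genes and 12.1% in that direction. The change with day differed between genotypes for 2 receptors, both with the higher value in DKO cells, against 10.1% of all genes, 5.36% with the higher value in DKO cells and 4.74% with the lower.

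**Figure D1:**
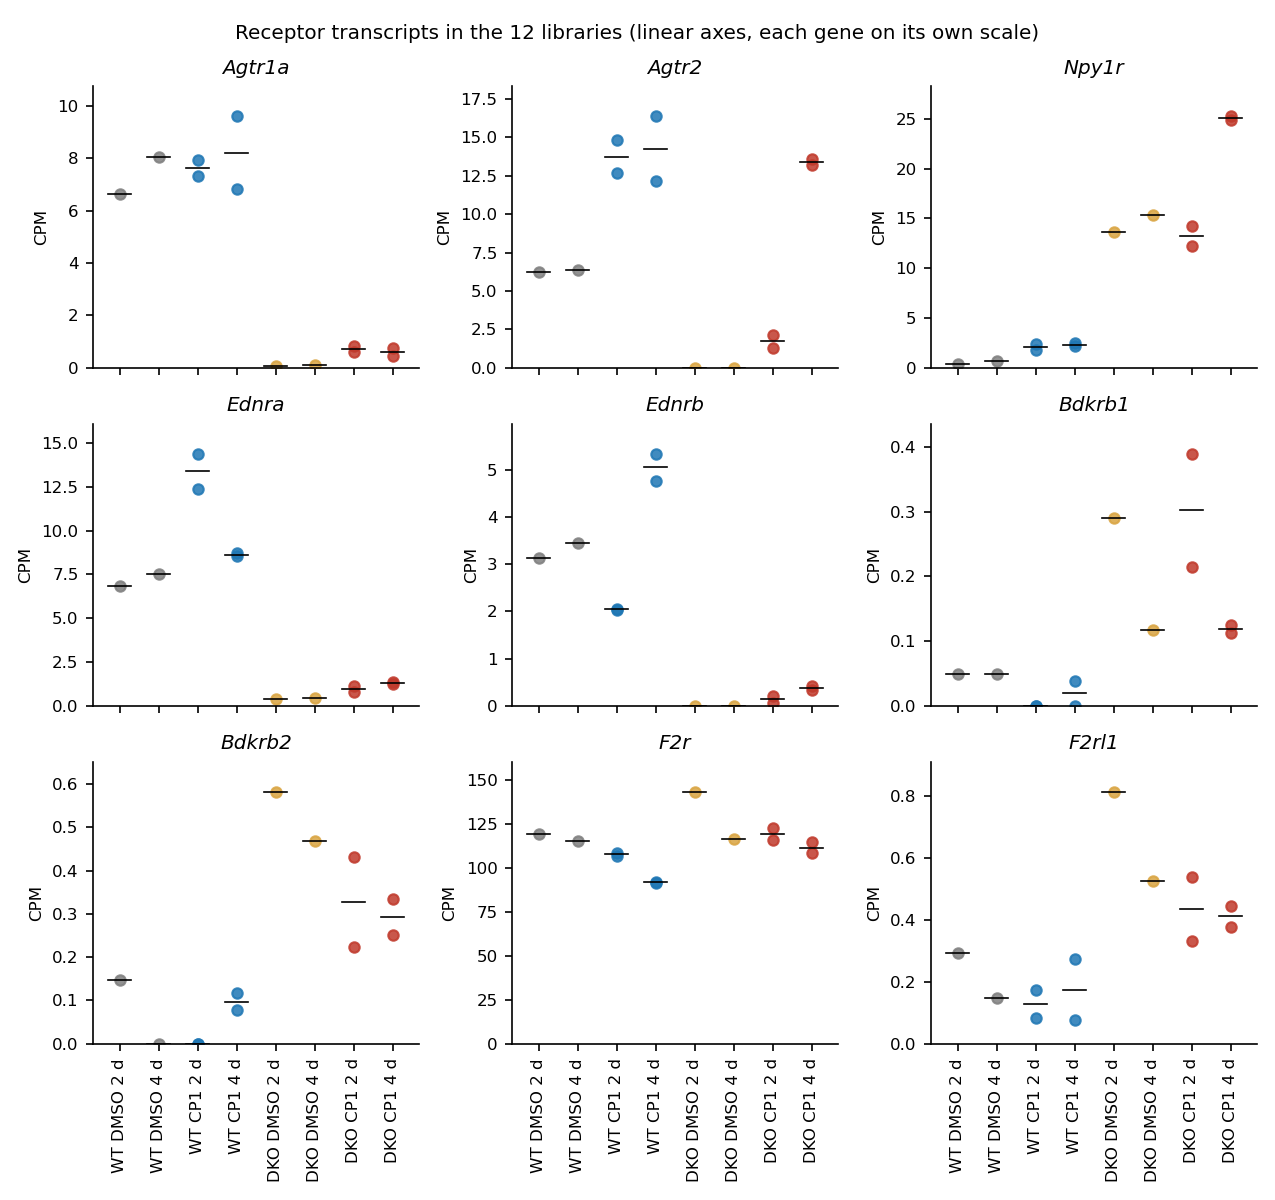
Level of each receptor transcript (CPM, linear axis, own scale per gene) in the 12 libraries, by genotype, treatment and day. Points are libraries and lines are group means. Agtr2 in DKO cells stands at 0 in both DMSO libraries, at 1.29 and 2.17 CPM after 2 days of CP1 and at 13.2 and 13.6 CPM after 4 days, while Npy1r is higher in every DKO library than in every WT library.

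Agtr1a, the growth-promoting angiotensin II receptor, stood far lower in DKO cells than in their WT counterparts. The WT libraries held 6.65 CPM in DMSO at 2 days and 8.06 at 4 days, 7.34 and 7.94 in the CP1 libraries at 2 days and 6.83 and 9.61 at 4 days. In DKO cells it held 0.0581 and 0.117 CPM in DMSO, 0.833 and 0.592 under CP1 at 2 days and 0.753 and 0.447 at 4 days. No DKO library reached any WT library, and the WT groups overlapped each other. In DMSO the comparison rests on 3 reads in DKO against 300 in WT libraries, a level 84.1-fold lower (95% exact binomial interval 28.5 to 410.2; edgeR adjusted p = 3.73e-08). Such intervals, and the floors used below, cover counting error only. Each SD of a genotype and treatment joins libraries of 2 and 4 days, so it includes any change with day. Under CP1 the log2 fold change of DKO over WT was −3.57 (edgeR adjusted p = 7.36e-09, SE 0.20), at 0.656 ± 0.172 against 7.93 ± 1.21 CPM (SD, n = 4 each).

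For CP1 against DMSO, Agtr1a in DKO cells had 52 reads in 4 libraries against 3 in 2 libraries, a ratio of 7.59 (95% interval 2.46 to 38.0). The WT ratio was 1.08, with overlapping libraries. Between 2 and 4 days of CP1 the log2 fold change was 0.10 in WT cells (edgeR adjusted p = 0.760, SE 0.17) and −0.20 in DKO cells (edgeR adjusted p = 0.807, SE 0.44). The DKO libraries under CP1 thus stood above DKO DMSO on both days and still below every WT library.

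Agtr2, the angiotensin II receptor of fetal mesenchyme, had no read in either DKO DMSO library. WT cells held 6.26 and 6.34 CPM in DMSO at 2 and 4 days. Under CP1 the WT libraries held 14.8 and 12.7 CPM at 2 days and 12.1 and 16.4 at 4 days, so every WT CP1 library stood above both WT DMSO libraries, by 2.19-fold at 2 days and 2.24-fold at 4 days. In DKO cells under CP1 the libraries held 2.17 and 1.29 CPM at 2 days and 13.6 and 13.2 at 4 days. The 2-day DKO libraries lay below all WT libraries, and those of 4 days lay within the range of the WT CP1 libraries.

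With 0 reads in DKO DMSO, folds against that group are bounds against a floor of 3 reads over the group. DKO cells in DMSO were at least 72.1-fold lower than WT cells (257 reads in WT; edgeR adjusted p = 5.64e-08). With the floor set in the DMSO library of the same day, DKO cells under CP1 stood at least 9.87-fold above it at 2 days and at least 76.6-fold at 4 days. From 2 to 4 days of CP1 Agtr2 rose in DKO cells by 2.95 on the log2 scale (edgeR adjusted p = 1.35e-10, SE 0.21), from 1.73 ± 0.619 to 13.4 ± 0.290 CPM (SD, n = 2 each). In WT cells the same step gave 0.05 (edgeR adjusted p = 0.861, SE 0.14). The difference between these changes was 2.90 (edgeR adjusted p = 1.08e-08, SE 0.26). In DMSO, with 1 library a day, the WT level changed by a ratio of 1.01 from 2 to 4 days and the DKO level stayed at 0 reads.

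Under CP1, averaged over the days, Agtr2 was lower in DKO than in WT cells by a log2 fold change of −1.54 (edgeR adjusted p = 2.72e-06, SE 0.15). That average joins a 7.97-fold lower level at 2 days with overlapping levels at 4 days, where means were 13.4 CPM in DKO and 14.3 ± 3.0 CPM in WT cells (SD, n = 2). On the log2(TPM + 1) scale the averaged difference did not pass (−1.05, limma adjusted p = 0.0583).

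**Figure D2:**
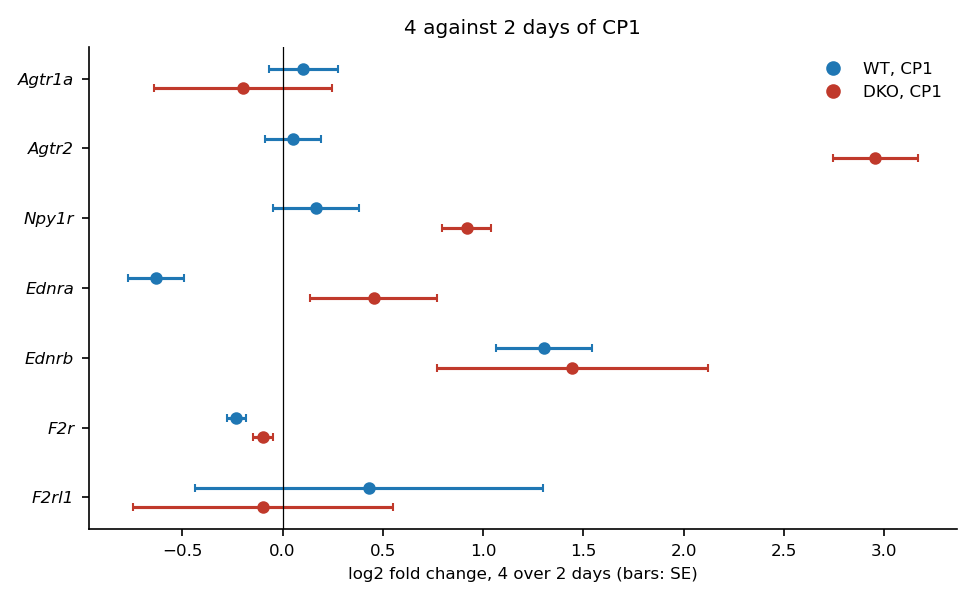
Change from 2 to 4 days of CP1 (log2 fold change, points; bars, SE) for the 7 receptors with enough reads, in WT (blue) and DKO cells (red), 2 libraries per day and genotype. Agtr2 is set apart in DKO cells at 2.95 against 0.05 in WT cells, and Ednra has values on opposite sides of 0, −0.63 in WT and 0.45 in DKO cells.

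Npy1r, the Y1 receptor for neuropeptide Y, went the other way between genotypes. It held 0.342 and 0.738 CPM in WT DMSO at 2 and 4 days and 13.7 and 15.3 CPM in DKO DMSO. Under CP1 the WT libraries held 1.78 and 2.37 CPM at 2 days and 2.50 and 2.18 at 4 days. The DKO libraries held 14.3 and 12.3 CPM at 2 days and 25.3 and 24.9 at 4 days. Every DKO library stood above every WT library, and the 2-day DKO CP1 libraries lay on both sides of the 2-day DKO DMSO library.

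In DMSO the log2 fold change of DKO over WT was 4.75 (edgeR adjusted p = 2.10e-08, SE 0.30), at 14.5 ± 1.16 against 0.540 ± 0.280 CPM (SD, n = 2 each). Under CP1 it was 3.06 (edgeR adjusted p = 4.18e-09, SE 0.16), at 19.2 ± 6.87 against 2.21 ± 0.312 CPM (SD over both days, n = 4 each). In DKO cells that SD mostly reflects the distance between the days. For CP1 against DMSO the WT ratios were 6.08 at 2 days, from 7 reads in the DMSO library, and 3.17 at 4 days, from 15 reads. The DKO ratios were 0.970 at 2 days and 1.64 at 4 days. From 2 to 4 days of CP1 Npy1r rose in DKO cells by 0.92 on the log2 scale (edgeR adjusted p = 3.24e-06, SE 0.12), and in WT cells the value was 0.17 (edgeR adjusted p = 0.680, SE 0.21). The difference of these changes, 0.75 (SE 0.25), missed the threshold (edgeR adjusted p = 0.0537). It passed without repeat 1 of DKO CP1 at 2 days (0.86, edgeR adjusted p = 0.0143). Its neighbour Npy5r, 9063 bases away and encoding another neuropeptide Y receptor, held 1 read over all libraries.

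The endothelin receptors were both low in DKO cells and moved in opposite directions with day in WT cells. Ednra, the type A receptor, held 6.84 and 7.52 CPM in WT DMSO at 2 and 4 days, 14.4 and 12.4 under CP1 at 2 days and 8.56 and 8.71 at 4 days. In DKO cells it held 0.407 and 0.467 CPM in DMSO, 1.11 and 0.807 under CP1 at 2 days and 1.38 and 1.23 at 4 days. Every WT library stood above every DKO library, and within each genotype every CP1 library stood above both DMSO libraries. DKO over WT gave a log2 fold change of −4.04 in DMSO (edgeR adjusted p = 1.62e-07, SE 0.32) and −3.26 under CP1 (edgeR adjusted p = 5.96e-09, SE 0.18).

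The CP1 to DMSO ratio of Ednra in WT cells was 1.95 at 2 days and 1.15 at 4 days, and in DKO cells 2.35 and 2.81. Between 2 and 4 days of CP1 Ednra fell in WT cells by 0.63 on the log2 scale (edgeR adjusted p = 0.00200, SE 0.14), and in DKO cells the value was 0.45 (edgeR adjusted p = 0.334, SE 0.32). The fall in WT cells did not pass without repeat 1 of WT CP1 at 2 days (−0.52, edgeR adjusted p = 0.0760) or by DESeq2 (adjusted p = 0.128). The difference of the changes was 1.09 (edgeR adjusted p = 0.0439, SE 0.35), close to the threshold, and it was lost without any 1 of 7 of the 8 CP1 libraries, at adjusted p from 0.0502 to 0.216.

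Ednrb, the type B receptor, held 3.13 and 3.44 CPM in WT DMSO at 2 and 4 days, 2.04 in both CP1 libraries at 2 days, and 4.76 and 5.33 at 4 days. It had no read in either DKO DMSO library and 1, 4, 10 and 6 reads in the DKO CP1 libraries, at most 0.418 CPM. The WT DMSO libraries lay between the 2-day and the 4-day CP1 libraries, at ratios of CP1 to DMSO of 0.652 and 1.47, and no DKO library reached a WT library. DKO cells were at least 37.6-fold lower than WT cells in DMSO (134 reads in WT; edgeR adjusted p = 3.08e-06). Under CP1 the log2 fold change was −3.80 (edgeR adjusted p = 1.23e-06, SE 0.34). Ednrb passed the read filter only through WT libraries, so these genotype calls are not independent of it and serve as a description. From 2 to 4 days of CP1 Ednrb rose in WT cells by 1.30 on the log2 scale (edgeR adjusted p = 0.000280, SE 0.24), from 2.04 ± 0.00242 to 5.04 ± 0.401 CPM (SD, n = 2 each). In DKO cells the value was 1.44 (edgeR adjusted p = 0.128, SE 0.68), from 5 reads at 2 days and 16 at 4 days.

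Cell type markers also differed between genotypes, in some lists with members going both ways. Beside the low Agtr1a, Agtr2, Ednra and Ednrb of DKO DMSO cells, all 9 fibroblast markers were lower there than in WT DMSO, and within DKO cells all 9 rose under CP1, to a summed 9938 to 12862 CPM. Of all genes tested, 32.7% were higher and 34.8% lower in DKO DMSO than in WT DMSO, and 24.2% rose under CP1 in DKO cells. Under CP1 the WT libraries held 13247 to 19420 CPM of these markers, and 8 of the 9 were lower in DKO cells, against 30.6% of all genes. For the difference of day effects under CP1, where Agtr2 stood out, 6 of the 9 were called, all with the higher value in DKO cells. Of all genes 10.1% were called for this difference, 5.36% in that direction. Epithelial markers went the other way, with 2 of 4 tested lower for that difference (median −4.28) and 3 of 4 lower from 2 to 4 days of CP1 in DKO cells (median −3.82). Of all genes 4.74% were lower for that difference and 12% were lower from 2 to 4 days of CP1 in DKO cells. All 5 epithelial markers together held 2.41 to 2.93 CPM in WT DMSO, 1.84 to 2.99 in WT CP1, 6.95 to 8.37 in DKO DMSO and 2.90 to 12 in DKO CP1. Of the 4 tested, 1 was higher and 2 lower in DKO DMSO than in WT DMSO (median −2.54), although the sum was higher there. Over 10 smooth muscle and pericyte markers the sum was 875 to 892 CPM in WT DMSO, 1285 to 1540 in WT CP1, 946 to 1011 in DKO DMSO with Kcnj8 and Abcc9 at 0, and 645 to 716 in DKO CP1 with Kcnj8 at 0. Of 8 tested, 2 were higher and 4 lower in DKO DMSO than in WT DMSO (median −0.49). Endothelial markers, 7 of 8 of them in the table, summed to 15.4 to 17.8 CPM in WT DMSO, 4.88 to 6.69 in WT CP1, 58.3 to 73.8 in DKO DMSO and 21.9 to 23.8 in DKO CP1, with Tie1 and Cldn5 at 0 in both DMSO groups. Of the 5 tested, 1 was higher and 1 lower in DKO DMSO than in WT DMSO (median −0.55), although the sum was higher there. Neural crest, glia and melanocyte markers, 7 of 8 in the table, summed to 35.8 to 37.8 CPM in WT DMSO, 24.9 to 30.6 in WT CP1, 2.62 to 3.74 in DKO DMSO with Sox10, Tyr and Dct at 0, and 8.06 to 9.66 in DKO CP1. Neuron markers, which bear on Npy1r, summed to 5.23 to 6.15 CPM in WT DMSO, 5.43 to 8.56 in WT CP1, 12.5 to 14.0 in DKO DMSO and 9.28 to 12 in DKO CP1. Macrophage markers summed to 4.92 to 6.21 CPM in WT DMSO with Adgre1 and Ptprc at 0, 4.34 to 5.78 in WT CP1, and 10.1 to 10.9 in DKO DMSO and 8.38 to 14.9 in DKO CP1 with Adgre1 at 0 in both, and all 3 of those tested were higher in DKO DMSO than in WT DMSO. Lats1, as given above, also stood higher in DKO CP1 than in DKO DMSO libraries, as Agtr1a, Agtr2 and Ednra did. The part of these cell types and of the Lats1 level in the receptor differences was not tested.

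**Figure D3:**
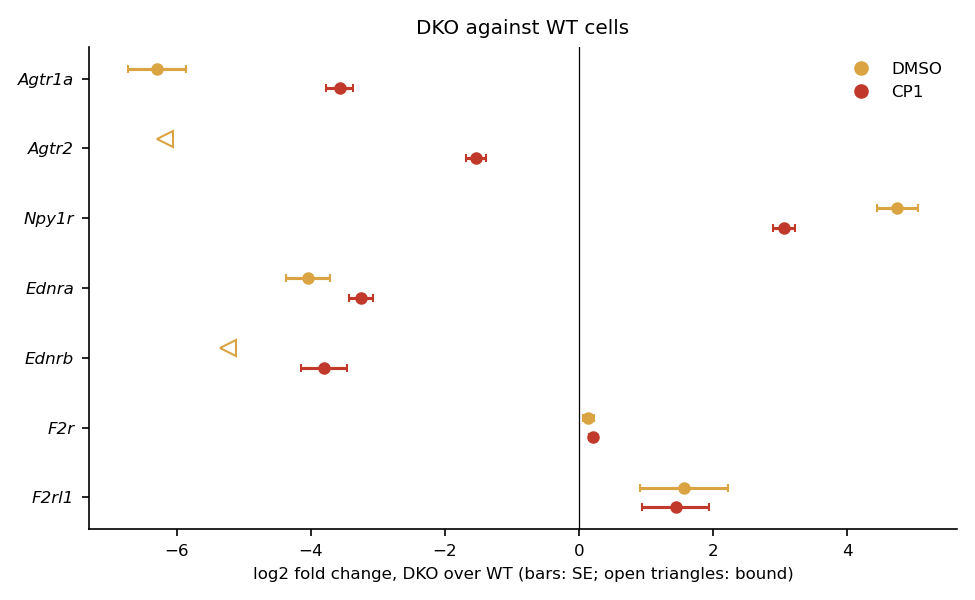
Difference between DKO and WT cells (log2 fold change, points; bars, SE) in DMSO (yellow) and under CP1 (red) for the 7 receptors with enough reads. Open triangles mark bounds against the floor of 3 reads where DKO DMSO had none, at least 72.1-fold lower for Agtr2 and at least 37.6-fold lower for Ednrb. Agtr1a, Agtr2, Ednra and Ednrb lie left of 0 and Npy1r right of it under both treatments.

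Both bradykinin receptor genes were near the limit of detection. Bdkrb1, the injury-induced receptor, had 1 and 1 reads in WT DMSO, 0, 0, 1 and 0 in WT CP1, 5 and 2 in DKO DMSO, and 7, 4, 3 and 2 in DKO CP1. Bdkrb2, the constitutive receptor, had 3 and 0 reads in WT DMSO, 0, 0, 2 and 3 in WT CP1, 10 and 8 in DKO DMSO, and 4, 8, 6 and 6 in DKO CP1. Every DKO library held more Bdkrb1 and more Bdkrb2 in CPM than every WT library, at most 0.389 and 0.581 CPM. In DMSO the DKO to WT ratio was 4.16 for Bdkrb1 (95% interval 0.792 to 41.0) and 7.13 for Bdkrb2 (95% interval 2.08 to 37.8). Neither gene had enough reads for the edgeR test, and a difference by CP1 or day was not detectable at this depth.

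F2r, the main thrombin receptor of fibroblasts, had the highest level of the 9 in every group and the narrowest range in proportion to its level. It held 119 and 115 CPM in WT DMSO at 2 and 4 days, 109 and 107 under CP1 at 2 days, and 92.3 and 91.5 at 4 days. In DKO cells it held 143 and 117 CPM in DMSO, 116 and 123 under CP1 at 2 days, and 115 and 108 at 4 days. The genotypes overlapped both in DMSO and under CP1. The lowest WT levels were those of 4 days of CP1.

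In DMSO the DKO against WT value of F2r was 0.14 (edgeR adjusted p = 0.152, SE 0.08), and it passed without the DKO DMSO 4-day library (0.24, edgeR adjusted p = 0.00966) and with 8 group means (0.14, edgeR adjusted p = 0.0121). On the log2(TPM + 1) scale it was −0.11. Under CP1 F2r was higher in DKO cells by 0.21 (edgeR adjusted p = 0.00718, SE 0.06), at 115 ± 5.94 against 99.9 ± 9.19 CPM (SD, n = 4 each). From 2 to 4 days of CP1 it fell in WT cells by 0.23 on the log2 scale (edgeR adjusted p = 0.00139, SE 0.05), a fall that did not pass on the log2(TPM + 1) scale (limma adjusted p = 0.304). In DKO cells the value was −0.10 (edgeR adjusted p = 0.158, SE 0.05). The CP1 to DMSO ratios were 0.903 and 0.797 in WT cells at 2 and 4 days and 0.834 and 0.959 in DKO cells, where the log2(TPM + 1) difference had the other sign (0.15).

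F2rl1, the receptor cut by trypsin-like proteases, was found at a few reads per library. It had 6 and 3 reads in WT DMSO, 4, 2, 2 and 7 in WT CP1, 14 and 9 in DKO DMSO, and 6, 10, 9 and 8 in DKO CP1. Every DKO library held more F2rl1 in CPM than every WT library, between 0.333 and 0.814 CPM in DKO and between 0.0768 and 0.293 in WT cells. DKO over WT gave 1.57 in DMSO (edgeR adjusted p = 0.0476, SE 0.65) and 1.44 under CP1 (edgeR adjusted p = 0.0235, SE 0.50). No WT library held more than 7 reads, under the minimum count of 10 in the read filter. F2rl1 passed that filter only through DKO libraries, so these calls are not independent of it and serve as a description. The DMSO call lay at the threshold and failed when the 4-day WT DMSO library was left out (0.94, edgeR adjusted p = 0.409) and without any 1 of 8 of the other 11 libraries, and that under CP1 was lost without any 1 of 4 CP1 libraries, at adjusted p from 0.0576 to 0.0778. No change with day was called, at 0.43 in WT cells (edgeR adjusted p = 0.807, SE 0.87) and −0.10 in DKO cells (edgeR adjusted p = 0.945, SE 0.65).

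**Figure D4:**
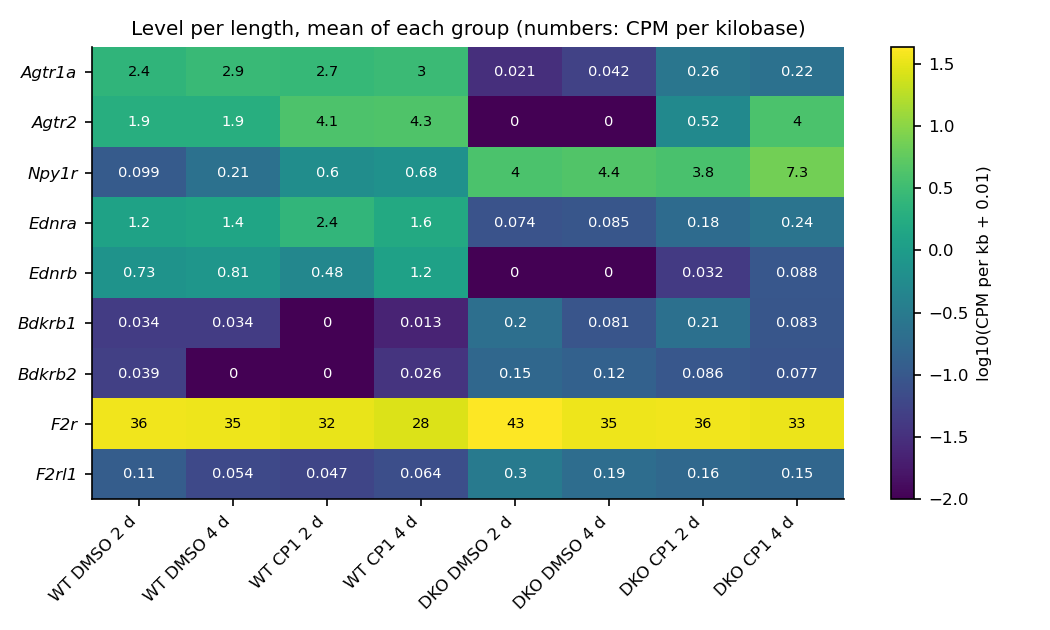
Mean level per length of each receptor transcript (CPM per kilobase of summed exon length; colour, log10 of the value plus 0.01) in the 8 groups. F2r leads every group, and the next receptor is Agtr1a or Agtr2 in WT groups and Npy1r in DKO groups.

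Set against each other per length, in CPM per kilobase of summed exon, F2r stood at 35.2 in WT DMSO and Agtr1a at 2.64, followed by Agtr2 at 1.89, Ednra at 1.31, Ednrb at 0.770 and Npy1r at 0.156. None of these neighbours overlapped in the 2 libraries, whereas Npy1r overlapped F2rl1, which came next at 0.0804. In WT CP1 the level per length of Agtr2 was 4.21, above Agtr1a at 2.85, while Agtr1a overlapped Ednra at 2.01 and Ednrb at 0.830 overlapped Npy1r at 0.639. In DKO DMSO the order of levels per length was F2r at 39.0, Npy1r at 4.19, F2rl1 at 0.244, Bdkrb1 at 0.142, Bdkrb2 at 0.138, Ednra at 0.0798 and Agtr1a at 0.0314, with Agtr2 and Ednrb at 0 reads. There F2rl1 overlapped Bdkrb1, which rests on 7 reads, and Bdkrb1 overlapped Bdkrb2. In DKO CP1 it was F2r at 34.6, Npy1r at 5.55, Agtr2 at 2.27, Agtr1a at 0.236 and Ednra at 0.207. Npy1r overlapped Agtr2 there, whose libraries lay far apart between the days, and Agtr1a overlapped Ednra.

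Across the 12 libraries, Pearson's r of log2 CPM was 0.977 between Agtr1a and Ednra, 0.957 between Agtr1a and Ednrb and 0.940 between Ednra and Ednrb. It was 0.774 between Agtr1a and Agtr2, −0.848 between Agtr1a and Npy1r and −0.403 between Agtr2 and Npy1r. These values share libraries and mainly set 6 WT against 6 DKO libraries, so they describe the groups already given. Among the genes most like Agtr2 by this measure were Pik3r3 (0.985) and Cxcl12 (0.981), and those most like Npy1r were Tmem267 (0.981), H3f3b (0.979) and Foxd2os (0.978), among tested genes with a mean log2 CPM of at least 2.

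Genes for peptide ligands differed between genotypes too, and changes of ligands and other pathway genes are given as log2 fold changes. The list joins precursors for these receptors, such as Edn1, with those for other receptors, such as Adm and Apln. Of 23 genes for peptide ligands and precursors 7 were tested, and in DMSO 2 stood higher and 4 lower in DKO cells, with a median log2 fold change of −3.40, or −3.02 with 2 genes at their bound, against −0.06 over all genes tested. That was 85.7% called against 67.5% of all genes, 32.7% higher and 34.8% lower. Edn1, the endothelin-1 precursor, stood at 32.8 ± 5.01 CPM in DKO DMSO against 1.57 ± 0.0627 in WT DMSO (SD, n = 2 each), a log2 fold change of 4.38 (edgeR adjusted p = 1.63e-09, SE 0.21), opposite in direction to both of its receptors. Within DKO cells Edn1 fell under CP1 by 1.43 on the log2 scale (edgeR adjusted p = 2.95e-06, SE 0.14), to 12.2 ± 0.767 CPM (n = 4). Kng2, a kininogen gene from whose product bradykinin is cut, was lower in DKO DMSO at −3.40 (edgeR adjusted p = 1.61e-05, SE 0.44) and rose in DKO cells under CP1 by 2.57 (edgeR adjusted p = 0.000323, SE 0.44), the near-identical Kng1 having 0 reads in DKO DMSO. Reads of these paralogs can be split between them. Adm, the adrenomedullin precursor, had the smallest p of the list in DMSO, −5.70 (edgeR adjusted p = 3.21e-10, SE 0.23). Under CP1 in WT cells 0 of the 7 rose and 1 fell, Adm by 0.58 (edgeR adjusted p = 0.00545, SE 0.12), where 17.8% of all genes were called, 7.48% higher and 10.3% lower. Under CP1 in DKO cells 2 rose and 2 fell, where 51.9% of all genes were called, 24.2% higher and 27.6% lower. From 2 to 4 days of CP1 in WT cells 4 of the 7 rose and 0 fell, and 0 were called by log2(TPM + 1). By edgeR 15.3% of all genes were called there, 7.0% higher and 8.26% lower. Apln, the apelin precursor, rose there by 0.64 (edgeR adjusted p = 2.40e-05, SE 0.09) and fell in DKO cells by 0.91 (edgeR adjusted p = 1.91e-06, SE 0.11), a difference of −1.55 (edgeR adjusted p = 6.99e-08, SE 0.14).

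Of 15 tested genes for peptidases that make or degrade these peptides, in DMSO DKO cells had 5 higher and 8 lower (median −0.68), 86.7% called against 67.5% of all genes. Under CP1 0 of them were called in WT cells against 17.8% of all genes, and 4 rose and 4 fell in DKO cells, 53.3% against 51.9%. Anpep, the aminopeptidase N that trims angiotensins, was at 1.40 ± 0.490 CPM in DKO DMSO against 32.6 ± 0.139 in WT DMSO (SD, n = 2 each; log2 fold change −4.57, edgeR adjusted p = 2.74e-09, SE 0.23). It rose in DKO cells under CP1 by 3.08 (edgeR adjusted p = 3.85e-07, SE 0.23). Prep, a prolyl endopeptidase, was higher in DKO DMSO by 1.83 (edgeR adjusted p = 1.48e-09, SE 0.09) and fell in DKO cells under CP1 by 0.94 (edgeR adjusted p = 3.85e-07, SE 0.07). From 2 to 4 days of CP1 in DKO cells Mme, the neprilysin that degrades vasoactive peptides, rose by 0.62 (edgeR adjusted p = 5.22e-10, SE 0.05).

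Around the protease receptors, 13 genes for thrombin's cofactors, inhibitors and activating proteases were tested, of which 3 stood higher and 7 lower in DKO DMSO than in WT DMSO (median −0.74), 76.9% called against 67.5% of all genes. Thbd, thrombomodulin, which binds thrombin and turns it to protein C, stood at 0.116 ± 0.0820 CPM in DKO DMSO against 304 ± 1.49 in WT DMSO (SD, n = 2 each), a log2 fold change of −11.50 (edgeR adjusted p = 3.69e-12, SE 0.26). Unlike Agtr2 it stayed low in DKO cells under CP1, at 0.103 ± 0.0917 CPM (n = 4). Plaur, the urokinase receptor, was higher in DKO DMSO by 2.41 (edgeR adjusted p = 3.40e-10, SE 0.10), and Tfpi, the inhibitor of the tissue factor pathway, was lower at −2.53 (edgeR adjusted p = 2.67e-08, SE 0.17). Under CP1 0 of the 13 rose and 4 fell in WT cells (2 without the 4-day WT DMSO library, 8 without either DKO DMSO library), among them F3, tissue factor, by 0.65 (edgeR adjusted p = 3.59e-05, SE 0.07). Of all genes 17.8% were called there, 7.48% higher and 10.3% lower. In DKO cells 3 rose and 4 fell, 53.8% against 51.9% of all genes. Serpine2, a thrombin inhibitor on the cell surface, rose by 2.45 (edgeR adjusted p = 1.26e-06, SE 0.18) from 185 ± 32.1 to 1042 ± 239 CPM.

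Other receptors for peptides and proteases, 11 tested of 29, had 3 higher and 6 lower members in DKO DMSO (median −1.27), 81.8% called against 67.5% of all genes. Npr3, the natriuretic peptide clearance receptor, was higher by 3.87 (edgeR adjusted p = 9.97e-06, SE 0.31), and Calcrl, the receptor of calcitonin gene-related peptide and adrenomedullin, was lower at −3.84 (edgeR adjusted p = 8.98e-09, SE 0.22). Under CP1 1 rose and 1 fell in WT cells, 18.2% against 17.8% of all genes, and 4 rose and 1 fell in DKO cells, 45.5% against 51.9%. Ramp2, the partner protein that makes Calcrl an adrenomedullin receptor, rose under CP1 in WT cells by 1.13 (edgeR adjusted p = 0.00528, SE 0.24) and in DKO cells by 2.99 (edgeR adjusted p = 3.35e-06, SE 0.29). In DKO cells Ramp2 rose further from 2 to 4 days by 0.93 (edgeR adjusted p = 0.00213, SE 0.22).

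Downstream, 11 of 21 tested genes for G proteins and effectors stood higher and 10 lower in DKO DMSO than in WT DMSO, where 67.5% of all genes were called. Gnao1 and Gnai1, inhibitory G protein subunits of the class that Npy1r couples to, were higher by 3.13 (edgeR adjusted p = 1.06e-10, SE 0.11) and 2.68 (edgeR adjusted p = 8.54e-10, SE 0.12). Gnai3, of the same class, went the other way, at 179 ± 7.31 CPM in DKO DMSO against 218 ± 5.32 in WT DMSO (SD, n = 2 each). Under CP1 in DKO cells 5 of the 21 rose and 9 fell, 66.7% called against 51.9% of all genes, a split that became 11 and 3 by log2(TPM + 1), which moved the median of all genes to 0.23. Plcb1, a phospholipase C that angiotensin and endothelin receptors activate through Gq, rose there by 1.43 (edgeR adjusted p = 2.55e-06, SE 0.13). Itpr3 and Gnai1 of the same list had values of −0.77 (edgeR adjusted p = 8.84e-07, SE 0.06) and −0.86 (edgeR adjusted p = 6.96e-06, SE 0.09) there. In WT cells 5 rose and 2 fell under CP1 (33.3% called, 17.8% of all genes), against 0 and 1 by log2(TPM + 1), which moved the median to −0.14. Of 18 tested desensitization and regulator genes 7 stood higher and 8 lower in DKO DMSO against WT DMSO, 83.3% called against 67.5% of all genes. Mtus1, which encodes a protein that binds the type 2 angiotensin receptor, was lower at −2.09 (edgeR adjusted p = 4.72e-07, SE 0.18). Rgs2, which damps Gq signalling, rose under CP1 in WT cells by 1.34 (edgeR adjusted p = 0.000415, SE 0.20), from 4.49 ± 0.400 to 11.6 ± 3.21 CPM (n = 2 and 4), and was lower in DKO than in WT cells under CP1 at −3.75 (edgeR adjusted p = 4.10e-09, SE 0.20).

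**Figure D5:**
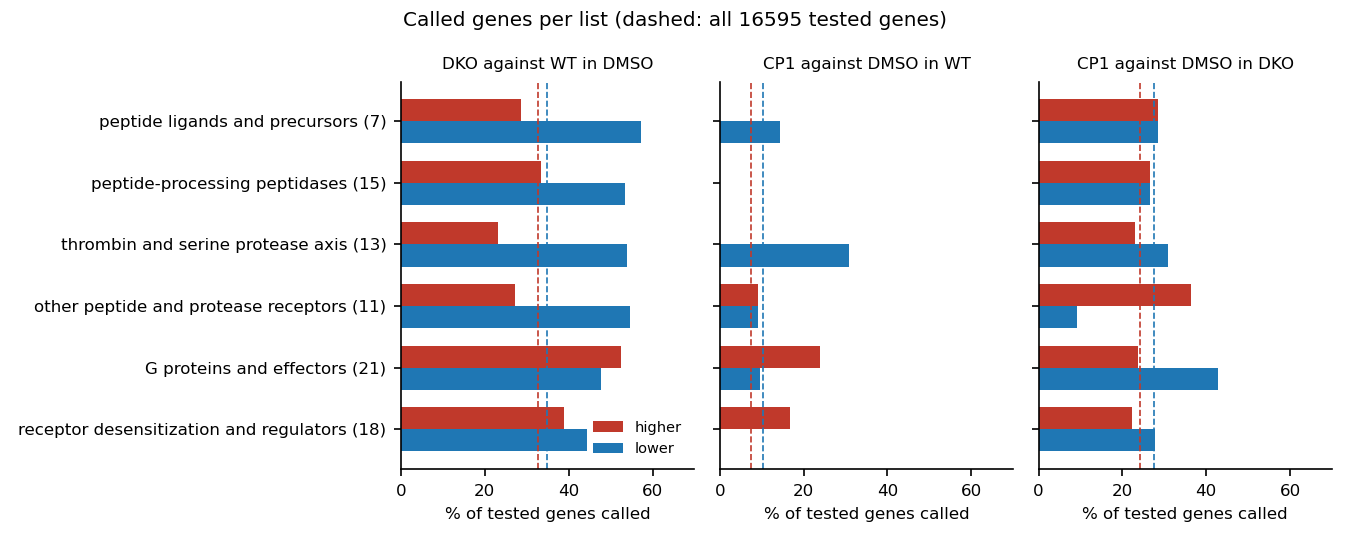
Share of the tested genes of 6 lists (number tested in brackets) called higher (red) or lower (blue) in DKO against WT cells in DMSO and for CP1 against DMSO in each genotype, in percent. Dashed lines give the shares over all 16595 genes tested. Lower calls in DKO DMSO exceed the dashed line in all 6 lists. Higher calls there exceed theirs in the lists of peptidases, of G proteins and effectors, and of desensitization and regulator genes. In WT cells under CP1 the peptidase list has 0 calls.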

How the data were processed

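The receptors and the gene lists were chosen with earlier results of these data known. The authors deposited whole-number read counts per gene, made with featureCounts 1.5.2 on mm10 per the submitters' processing notes, and a TPM table, in which TPM values are scaled by gene length and to the total of each library. The aligner and the strand setting are not given in the sources used here, so overlapping antisense genes cannot be told apart. The gene positions matched GENCODE vM21, and 0 columns lacked a sample.

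From the counts, edgeR 4.0.16 (R 4.3.3) with TMM scaling and robust quasi-likelihood tests was fitted to all 12 libraries, with Benjamini-Hochberg adjustment over 16595 genes that passed filterByExpr (minimum count 10, minimum total 15) and a threshold of 0.05. Genotype and CP1 comparisons used 4 genotype and treatment means and a day term per genotype (6 residual degrees of freedom), which takes the day effect to be equal in DMSO and CP1. Day comparisons used 8 group means (4 residual degrees of freedom), where the DMSO groups have 1 library and add no estimate of spread. CPM are counts over TMM-scaled totals. A group with no reads was given a floor of 3 reads over the group, and intervals of read ratios are exact binomial at 95%. Named were all 9 receptors, up to 3 called genes with the smallest p per list and comparison, of which examples are printed, and the 3 genes most like Agtr2 and Npy1r. Of the genes this rule names, 2 are not reported here. Alternatives were DESeq2 1.42.0 size factors and its Wald test, no low-count filter, limma 3.58.1 on log2(TPM + 1), 8 group means, subsets of libraries, a replicate block and leaving out each library. The TPM fit without Gm23935 was added after seeing the data. The edgeR steps were tested on simulated counts, for genotype in DMSO and for day under CP1 in DKO cells.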

Additional observations from a re-analysis of the deposited data

Results flagged for a closer look

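Agtr2 drew attention because its change from 2 to 4 days of CP1 differed between the genotypes, by 2.90 on the log2 scale (edgeR adjusted p = 1.08e-08, SE 0.26). Both DKO libraries of 4 days stood above both of 2 days, and the WT libraries of the days overlapped. Over all alternatives the difference ran from 2.42 to 3.32, and it passed the threshold in each of them. All fibroblast markers that were called for the same difference, 6 of 9 where 10.1% of all genes were called, had the same sign. Their part in the result was not tested.

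Ednra drew attention for the same comparison, with a difference of 1.09 (edgeR adjusted p = 0.0439, SE 0.35). Both WT libraries of 4 days stood below both of 2 days, and both DKO libraries of 4 days stood above both of 2 days. Over the alternatives the adjusted p ran from 0.0239 to 0.216, so this call depends on the processing. No group had 4 libraries, so no library was compared with the rest of its group for a stray value.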

How the results depend on the processing

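No receptor difference past the threshold changed sign. Some values not past it did, such as F2r between genotypes in DMSO, which went from 0.14 to −0.11 on log2(TPM + 1). Of 420 receptor tests with 1 library left out, 396 stayed on the same side of the threshold, 21 were lost and 3 gained, and of 216 under other settings 202 stayed, 12 were lost and 2 gained. The 21 were tests of F2rl1 between genotypes and of Ednra with day, as were the 12 other than Agtr2 between genotypes under CP1 and F2r with day in WT cells, both on log2(TPM + 1). Of 252 CP1 against DMSO values of receptors, 216 moved by at most 1 SE and 36 by more.

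Genes changed with day in WT cells numbered 2532, and 1203 by DESeq2, 602 on log2(TPM + 1) and 1038 on that scale without Gm23935. In DKO cells there were 4012, and 2133 by DESeq2 and 769 on log2(TPM + 1). The difference of day effects had 1677, and 854, 416 and 675 under those 3 settings. CP1 in WT cells changed 2952 genes, 1853 on log2(TPM + 1) and 5986 with 8 group means. Receptors changed with day in WT cells went from 3 to 1 on log2(TPM + 1). Receptors with a difference of day effects went from 2 to 1 without the low-count filter, by DESeq2 and on log2(TPM + 1) with or without Gm23935, in each case by the loss of Ednra. The cause was not tested.

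With 1 library left out, genes called ran from 9513 to 11204 for genotype in DMSO (receptors 5 to 6) and from 8898 to 11505 for genotype under CP1 (receptors 6 to 7). For CP1 they ran from 1248 (without the WT DMSO 4-day library; 1393 without the 2-day one) to 5226 (without either DKO DMSO library) in WT cells and from 7445 to 8854 in DKO cells. For day in WT cells they ran from 1179 to 3626 (receptors 2 to 3), and to at most 1373 without any 1 of the 4 WT CP1 libraries. For day in DKO cells they ran from 2207 (without repeat 1 of DKO CP1 at 4 days) to 4403 (receptors 2 to 3), and for the difference from 986 (without the same library) to 2661 (without repeat 1 of DKO CP1 at 2 days; receptors 1 to 3). Without repeat 1 or 2 of WT CP1 at 2 days the difference had 1020 or 1073.

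Deviations of repeats with the same number correlated weakly (r from −0.0090 to 0.116), and the labels do not say whether such repeats share a culture or batch. With the replicate block on the 8 CP1 libraries, 11319 genes were called for genotype, 3112 and 4474 for day in WT and DKO cells and 2162 for the difference, and Npy1r passed for the difference (adjusted p = 0.0393).

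On log2(TPM + 1) the median of all genes was −0.23 and 0.19 for genotype in DMSO and under CP1, −0.14 and 0.23 for CP1 in WT and DKO cells, and −0.13 for day in WT cells. The share of calls that were higher went from 48.4% to 34.7%, 48.6% to 69.4%, 42.1% to 7.77%, 46.7% to 79.8% and 45.9% to 10.1% in these comparisons. For day in DKO cells it went from 50.2% to 33.3% and for the difference from 53.1% to 66.3%. With 1 DMSO library a day and few reads for the bradykinin receptors and F2rl1, day effects in DMSO had no test and small changes of these genes were not detectable.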
